A study of Mus musculus with 15 samples.

Results

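Resident macrophages of the liver and the lung were followed here through 10 genes that mark these cells. The genes were found by their symbols, Clec4f, Vsig4, Timd4, Cd5l, Marco, Adgre1, C1qa, C1qb, Csf1r and Cd68, each of which names 1 of the 54532 genes in the liver table and in the lung table. All 10 were read in both tissues, and their levels were compared between the diets within each tissue and between lung and liver within each diet.

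Macrophages are phagocytes that settle in most organs and clear dead cells, microbes and debris. Those of the liver, Kupffer cells, line the sinusoids and meet the blood from the gut, and those of the lung live both in the air spaces and in the tissue between them. Kupffer cells depend on the receptor for macrophage colony-stimulating factor, Csf1r. Kupffer cells are known for Clec4f, Vsig4, Timd4 and Cd5l, alveolar and Kupffer cells both for the scavenger receptor Marco, and Adgre1, C1qa, C1qb, Csf1r and Cd68 are found on macrophages of many organs.

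RNA was sequenced from frozen pieces of whole liver from 4 mice on a control diet (CS group) and 5 on the same diet with 2% phytosterols, the plant relatives of cholesterol (PS group), and from whole lung of 3 CS and 3 PS mice. All were wild type male mice of the inbred strain C57BL/6J, and their age is labelled as 28 weeks, which is less than the starting age and feeding times in the methods add up to. Each library came from 1 mouse, and the 6 lungs came from mice whose liver was also sequenced. In whole tissue, fewer macrophages and less RNA per macrophage cannot be told apart.

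Total counts were 14410117 to 17625179 per liver and 17934930 to 19396057 per lung. Marker genes of each tissue followed the labels. Albumin (Alb) reached at least 49943 CPM in every liver and at most 59.5 CPM in a lung, and Sftpc, the surfactant protein gene of alveolar epithelium, was at 12878 CPM or more in every lung and at 0.704 CPM or less in every liver. Among the CS livers, replicate 2 stood apart from the rest, with a chi-square per degree of freedom over all genes of 263 to 332 against each of the other 3, which gave 42.2 to 96.6 among themselves, and liver counts of macrophage genes that turn on it are given with and without it. CPM is the count scaled to a common library size after TMM normalization, which takes most genes of a library as unchanged, and it was computed within a tissue. Levels of different genes or of both tissues are given as RPKM, the same value per kilobase of gene length with all 15 libraries scaled together.

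The stretch before a gene's start is shown for Vsig4 and Cd5l, nearly confined to the liver in these samples, and for Marco and Timd4, whose liver levels varied widely between mice. The promoter of Clec4f, also nearly confined to the liver, was searched and is not printed. Promoters of 7 of the 10 genes were found in RefSeq (build GRCm38.p6), and each is the 250 bases before the start. They were searched on both strands for GAGGAA, the core that the macrophage factor PU.1 prefers, and for TATAAA, and no matches overlapped. Capitals mark GAGGAA or, read from the other strand, TTCCTC.
Vsig4 promoter, chrX:96293439-96293688, minus strand: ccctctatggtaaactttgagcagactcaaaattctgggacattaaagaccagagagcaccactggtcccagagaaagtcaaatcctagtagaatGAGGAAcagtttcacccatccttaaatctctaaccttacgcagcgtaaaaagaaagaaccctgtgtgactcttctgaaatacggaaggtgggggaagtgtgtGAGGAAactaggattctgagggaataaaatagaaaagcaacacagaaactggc
Cd5l promoter, chr3:87357631-87357880, plus strand: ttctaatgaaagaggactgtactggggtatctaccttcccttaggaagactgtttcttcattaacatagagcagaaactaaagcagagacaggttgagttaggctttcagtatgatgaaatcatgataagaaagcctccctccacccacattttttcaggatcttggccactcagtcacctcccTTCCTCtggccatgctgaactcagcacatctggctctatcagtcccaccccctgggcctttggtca
Marco promoter, chr1:120505025-120505274, minus strand: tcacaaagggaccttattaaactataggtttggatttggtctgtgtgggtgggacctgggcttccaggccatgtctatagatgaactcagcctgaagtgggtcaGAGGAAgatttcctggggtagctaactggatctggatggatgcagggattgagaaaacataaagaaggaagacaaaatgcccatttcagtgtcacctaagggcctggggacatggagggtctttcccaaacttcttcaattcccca
Timd4 promoter, chr11:46810549-46810798, plus strand: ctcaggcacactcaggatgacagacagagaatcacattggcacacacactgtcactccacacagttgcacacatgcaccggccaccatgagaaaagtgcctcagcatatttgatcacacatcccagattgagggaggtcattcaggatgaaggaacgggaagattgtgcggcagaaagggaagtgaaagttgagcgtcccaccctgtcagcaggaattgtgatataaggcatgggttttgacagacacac

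The Vsig4 promoter held GAGGAA at 155 and at 53 bases before the start. Marco held it at 146 bases before the start, Cd5l held it on the other strand at 66 bases, and Timd4 had none. Of the promoters not printed, C1qb and Cd68 had 1 match each and Clec4f had none. Among all 32851 promoters of that length, 23.3% held GAGGAA on either strand and 12.4% held TATAAA, which none of these 7 had. A match describes letters only and is no evidence of binding.

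In the liver, every macrophage gene had a lower mean level in the PS group, and none passed the test. The median log2 fold change of the 10 genes was -0.75, against -0.03 over the 13195 genes tested, of which 53.9% were lower. With edgeR's quasi-likelihood test and Benjamini-Hochberg adjustment over all genes, 0 of the 10 had an adjusted p under 0.05, as did 0.00758% of all genes, a single one. At an unadjusted p of at most 0.05, 3 of the 10 were lower (Clec4f, C1qa and Csf1r), against 3.58% of all genes, and DESeq2's Wald test gave 4. The count was 1 with each library's trend with GC content removed and 5 with limma on log2(FPKM + 1). The levels of 1 of them, Clec4f, did not overlap between the diets, as was so for 1.53% of all genes in that direction. The plot of liver levels shows each mouse.

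**Figure D1:**
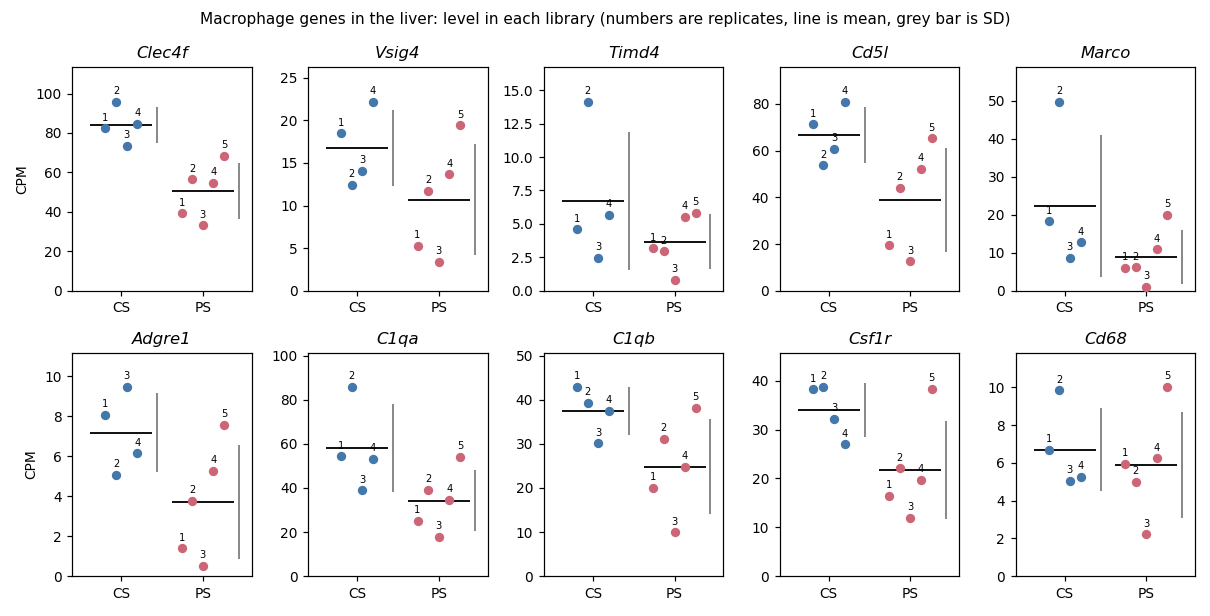
Level of each of the 10 genes in CPM (vertical axis, from 0) in the 4 CS and 5 PS livers, with points numbered by replicate, the mean as a line and the SD as a grey bar. All 10 means are lower in the PS group, and PS replicate 3 is the lowest liver in every panel.

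Clec4f (ENSMUSG00000014542, chromosome 6, 83644542 to 83656187, GRCm38, minus strand) encodes a galactose-binding lectin of Kupffer cells. Its level was 82.3, 96.0, 73.4 and 84.8 CPM in the CS livers and 39.3, 56.5, 33.2, 54.7 and 68.4 CPM in the PS livers. Every PS liver lay below every CS liver. The log2 fold change was -0.74 (standard error, SE, 0.22, adjusted p 0.355 in edgeR), from 84.1 ± 9.28 CPM (SD over 4 mice) to 50.4 ± 14.1 CPM (SD over 5 mice).

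Vsig4 (ENSMUSG00000044206, chromosome X, 96247203 to 96293438, minus strand), the complement receptor with which Kupffer cells take up opsonized particles from the blood, stood at 18.5, 12.4, 14.0 and 22.2 CPM in CS and at 5.25, 11.7, 3.38, 13.7 and 19.4 CPM in PS livers. PS replicates 1 and 3 were below all others, while PS replicates 4 and 5 lay within the CS range. Its log2 fold change was -0.65 (SE 0.43, adjusted p 0.786 in edgeR).

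Timd4 (ENSMUSG00000055546, chromosome 11, 46810800 to 46844332, plus strand) encodes a receptor for phosphatidylserine on dying cells. CS livers held 4.58, 14.2, 2.44 and 5.70 CPM, and PS livers 3.17, 2.96, 0.816, 5.51 and 5.84 CPM. The diets overlapped, and the highest value, in CS replicate 2, stood far above the other livers. The log2 fold change of -0.87 (SE 0.56, adjusted p 0.777 in edgeR) shrank to -0.21 without that liver.

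Marco (ENSMUSG00000026390, chromosome 1, 120474538 to 120505024, minus strand), a scavenger receptor for bacteria and particles, varied most. It was at 18.3, 49.8, 8.71 and 12.7 CPM in CS livers and at 5.95, 6.20, 1.05, 10.9 and 19.9 CPM in PS livers. Its highest value was again in CS replicate 2 and its lowest in PS replicate 3. For Marco the log2 fold change was -1.35 (SE 0.67, adjusted p 0.704 in edgeR), and -0.59 without CS replicate 2.

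Cd5l (ENSMUSG00000015854, chromosome 3, 87357881 to 87371073, plus strand) encodes a secreted protein that also promotes macrophage survival. It gave 71.3, 53.7, 60.9 and 81.1 CPM in CS livers, and 19.5, 44.2, 12.5, 52.3 and 65.2 CPM in PS livers. As for Vsig4, PS replicates 1 and 3 stood apart below the other livers. PS minus CS gave -0.78 on the log2 scale (SE 0.40, adjusted p 0.709 in edgeR).

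C1qa and C1qb encode chains of C1q, the recognition part of the classical complement pathway, which macrophages secrete. C1qa (ENSMUSG00000036887, chromosome 4, 136895917 to 136898803, minus strand) was at 54.4, 85.8, 38.9 and 53.3 CPM in CS and at 25.2, 39.3, 17.8, 34.7 and 54.1 CPM in PS livers, a log2 fold change of -0.76 (SE 0.31, adjusted p 0.605 in edgeR). C1qb (ENSMUSG00000036905, chromosome 4, 136880129 to 136886187, minus strand) was at 42.9, 39.3, 30.1 and 37.5 CPM in CS and at 20.01, 31.1, 9.97, 24.7 and 38.2 CPM in PS livers, with -0.59 (SE 0.31, adjusted p 0.716 in edgeR). For both, PS replicates 2 and 5 lay within the CS range and PS replicates 1, 3 and 4 below it.

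Adgre1 (ENSMUSG00000004730, chromosome 17, 57358691 to 57483527, plus strand), which encodes the F4/80 antigen, was a weakly expressed gene of the liver. It gave 8.06, 5.05, 9.46 and 6.15 CPM in CS and 1.39, 3.75, 0.525, 5.28 and 7.56 CPM in PS livers. The diets overlapped, and the log2 fold change was -0.95 (SE 0.57, adjusted p 0.757 in edgeR).

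Csf1r (ENSMUSG00000024621, chromosome 18, 61105572 to 61132149, plus strand) is the receptor for the growth factors Csf1 and Il34. It was at 38.3, 38.7, 32.3 and 27.0 CPM in CS and at 16.5, 22.1, 12.0, 19.8 and 38.3 CPM in PS livers. Of the PS livers 4 lay below the CS range and replicate 5 within it, with a log2 fold change of -0.65 (SE 0.29, adjusted p 0.657 in edgeR). Its exons overlap those of Hmgxb3 on the other strand over 873 bases, and the sources used here do not say whether the counting used strand, so reads in that stretch are uncertain. None of the other 9 genes overlaps another gene's exons.

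Cd68 (ENSMUSG00000018774, chromosome 11, 69664213 to 69666153, minus strand) encodes a lysosomal glycoprotein of phagocytes. Its 6.68, 9.84, 5.05 and 5.25 CPM in CS livers and 5.95, 5.00, 2.22, 6.24 and 10.01 CPM in PS livers overlapped widely. The log2 fold change of -0.19 (SE 0.37, adjusted p 0.966 in edgeR) was the smallest of the 10, and it turned positive, to 0.05, without CS replicate 2 and to 0.02 without PS replicate 3.

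The livers differed more within a diet than these means show. PS replicate 3 was the lowest liver for 10 of the 10 genes, and PS replicate 1 was the lowest or second lowest for 8. Relative to each gene's mean over the 9 livers, the median of the 10 genes was 0.288 in PS replicate 3 and 0.581 in PS replicate 1, but 1.31 in PS replicate 5, close to the 1.32 of CS replicate 1. CS replicate 2 was the highest liver for 5 genes, with a ratio of up to 3.36, for Marco. Without PS replicate 3 the median log2 fold change of the 10 genes was -0.58, with 9 lower, and without CS replicate 2 it was -0.59, with 9 lower. Without PS replicate 5 it was -0.98. The number with an unadjusted p of at most 0.05 in edgeR was 1 without CS replicate 2, PS replicate 1, PS replicate 3 or PS replicate 4, and 8 without PS replicate 5.

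**Figure D2:**
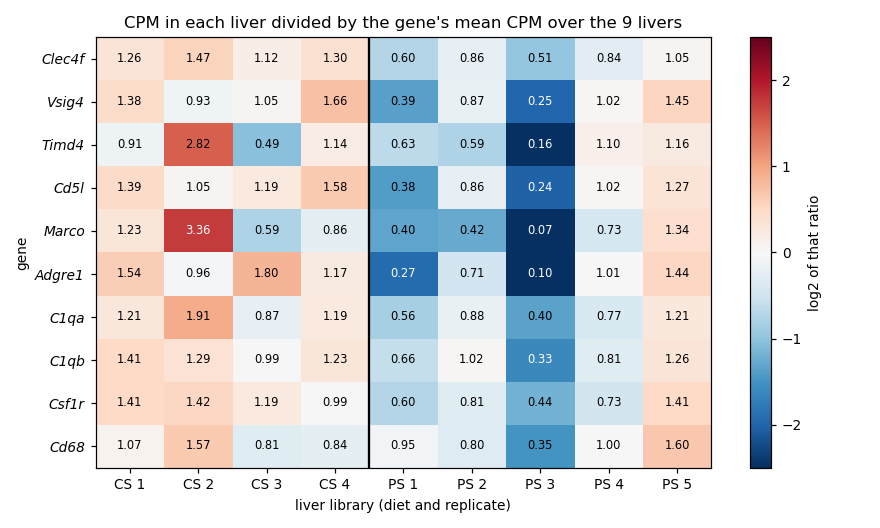
CPM of each gene (rows) in each liver (columns) divided by the gene's mean over the 9 livers, with the ratio printed in each cell and its log2 as the colour. The column of PS replicate 3 is lowest throughout (median 0.288), and the column of PS replicate 5 (median 1.31) resembles the CS livers.

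Other macrophage genes of the liver were mostly lower in the PS group too, and none passed the adjusted threshold. Of 15 further Kupffer cell genes, all tested, 13 were lower, with a median log2 fold change of -0.54. The gene with the smallest p in edgeR was Fcna, a ficolin that starts the lectin pathway of complement, at 36.1 ± 5.30 CPM (SD over 4 mice) in CS and 20.1 ± 6.03 CPM (SD over 5 mice) in PS livers (log2 fold change -0.85, SE 0.23, adjusted p 0.321 in edgeR). Id3, a transcription regulator that Kupffer cells need, had -0.84 (SE 0.29, adjusted p 0.475 in edgeR), and Clec1b, a lectin receptor of Kupffer cells and platelets, had -0.66 (SE 0.29, adjusted p 0.642 in edgeR). Without CS replicate 2, 13 of the 15 were again lower, with a median of -0.34.

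Of 25 genes shared by macrophages in general, 23 were tested and 20 were lower, with a median of -0.40 (-0.26 without CS replicate 2, with 19 of 24 lower). Axl, a receptor for the uptake of dying cells, had the smallest p among them (-0.72, SE 0.23, adjusted p 0.413 in edgeR), followed by Laptm5, a lysosomal protein of leukocytes (-1.03, SE 0.39, adjusted p 0.538 in edgeR), and Cd14, a co-receptor for lipopolysaccharide (-0.74, SE 0.32, adjusted p 0.636 in edgeR). Of 21 growth factors, receptors and transcription factors of macrophages, 20 were tested and 16 were lower, with a median of -0.23, and without CS replicate 2 there were 11 lower, with a median of -0.02. This list shares Id3, Spic and Nr1h3 with the Kupffer cell list.

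Complement genes other than C1qa and C1qb were nearly balanced, with 6 of 10 lower and a median of -0.09. C1qc, the remaining C1q chain, had a log2 fold change of -0.47 (SE 0.29, adjusted p 0.769 in edgeR), and C3, which hepatocytes make in large amounts, had -0.42 (SE 0.24, adjusted p 0.747 in edgeR). Of 14 monocyte genes, 10 were tested and 7 were lower. Among them Nr4a1, an immediate early gene and a factor of patrolling monocytes, gave the smallest p of any listed gene (-2.43, SE 0.46, adjusted p 0.114 in edgeR). Without CS replicate 2 it was called lower (-2.59, SE 0.45, adjusted p 0.0315 in edgeR), as were 0.165% of all genes. Genes of alveolar macrophages, which the liver lacks, were split, with 5 of the 12 tested lower.

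Of the genes of other liver cells, 0 passed the adjusted threshold. All 11 endothelial genes had lower means in PS livers, at a median of -0.56 on the log2 scale. Without CS replicate 2, 10 of the 11 were lower, at a median of -0.35. Their summed level was 119.1 to 221.4 CPM in CS livers and 101.9 to 147.6 CPM in PS livers. The smallest p among them was that of Cldn5, a tight junction protein of vessels, at 8.998 ± 2.14 CPM (SD over 4 mice) and 3.35 ± 1.58 CPM (SD over 5 mice), with a log2 fold change of -1.42 (SE 0.35, adjusted p 0.232 in edgeR). Of 10 T and NK cell genes, 8 were tested and 8 were lower, with sums of 6.59 to 21.9 CPM in CS and 4.02 to 10.7 CPM in PS livers, and without CS replicate 2 there were 5 lower, at a median of -0.03. Hepatocyte genes were lower for 4 of 10, with a median of 0.06 and sums of 101810 to 143920 CPM in CS and 116430 to 154460 CPM in PS livers. The part of cell makeup in the liver differences was not tested.

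Genes whose liver pattern was most like that of Clec4f were sought among the 10794 whose log2 CPM averaged 1 or more, by Pearson's r of log2 CPM over the 9 livers. As a description, the 5 closest that are not among the 10 genes were Fam167b (0.967), Oxct1 (0.965), Pcdh12 (0.952), Clec4g (0.945) and Mrc1 (0.945). C1qa stood at place 4 of the whole order (0.951), Csf1r at place 16 (0.922) and C1qb at place 20 (0.915), while Cd68 was at place 435 (0.676). The 9 points are single libraries of both diets, and leaving out PS replicates 1 and 3, the farthest in Clec4f, lowered r to 0.923 for Fam167b, 0.849 for C1qa and 0.345 for Vsig4.

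In the lung, the same genes did not share a direction. Of the 10, 7 passed the filter on low counts, 4 of them higher and 3 lower on the PS diet, at a median of 0.36 on the log2 scale against 0.01 over the 16717 genes tested. Adgre1 was the only one past the adjusted threshold, 1 lower against 4.43% of all genes lower, and 0 were higher against 4.8% of all genes. Calls over all genes turned on single lungs, with 802 higher and 740 lower against 0 and 0 without CS replicate 3, 1 and 22 without CS replicate 1, 1 and 25 without CS replicate 2, and 2 and 7 without PS replicate 2. The mouse of liver PS replicate 3, the lowest liver, gave lung PS replicate 2, which was the highest lung for 3 of the 10 genes and the lowest for 1, Adgre1.

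**Figure D3:**
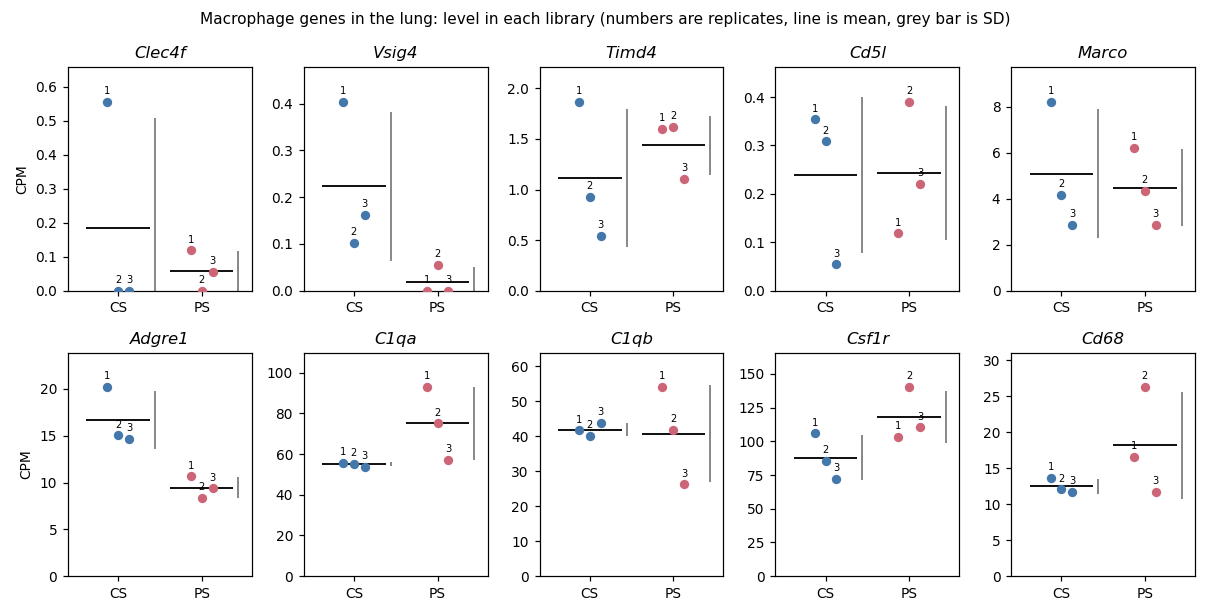
Level of each of the 10 genes in CPM (vertical axis, from 0) in the 3 CS and 3 PS lungs, with points numbered by replicate, the mean as a line and the SD as a grey bar. Adgre1 is lower in every PS lung (8.37 to 10.7 CPM) than in every CS lung (14.7 to 20.2 CPM), and Clec4f, Vsig4 and Cd5l are below 1 CPM throughout.

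Adgre1 was at 20.2, 15.1 and 14.7 CPM in CS lungs and at 10.7, 8.37 and 9.38 CPM in PS lungs. The diets did not overlap, as was so for 18.8% of all genes in that direction. The log2 fold change was -0.81 (SE 0.21, adjusted p 0.0448 in edgeR), from 16.6 ± 3.10 CPM (SD over 3 mice) to 9.47 ± 1.14 CPM (SD over 3 mice). The call was lost without any 1 of the lungs other than PS replicate 1, with an adjusted p in edgeR of 0.140 without CS replicate 1, 0.118 without CS replicate 2, 0.114 without CS replicate 3, 0.138 without PS replicate 2 and 0.0567 without PS replicate 3. The fold change ran from -0.91 to -0.68 over the lungs left out. The call was also lost with limma on the deposited FPKM values (-0.64 and -0.78, adjusted p 0.0517 and 0.0503) and once each library's trend with GC content was removed (-0.70, adjusted p 0.0642 in edgeR).

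C1qa was at 55.8, 55.2 and 53.8 CPM in CS lungs and at 93.0, 75.0 and 57.2 CPM in PS lungs. In CPM scaled over the lungs every PS lung lay above every CS lung, as for 17.3% of all genes, but in RPKM scaled over both tissues the lowest PS lung (29.7) lay below the highest CS lung (30.5). The log2 fold change of 0.45 (SE 0.18, adjusted p 0.134 in edgeR) did not pass. Without PS replicate 3 it was 0.61 and passed (adjusted p 0.0335 in edgeR). C1qb, at 41.6, 40.1 and 43.9 CPM in CS and 54.0, 41.9 and 26.2 CPM in PS lungs, had PS values on both sides of the CS range and a log2 fold change of -0.04 (SE 0.24, adjusted p 0.926 in edgeR).

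Csf1r gave 105.9, 85.7 and 72.3 CPM in CS and 103.5, 140.3 and 110.3 CPM in PS lungs. The highest CS lung exceeded the lowest PS lung, and the log2 fold change was 0.42 (SE 0.18, adjusted p 0.159 in edgeR). Cd68 gave 13.7, 12.1 and 11.7 CPM in CS and 16.6, 26.3 and 11.7 CPM in PS lungs, with 0.54 (SE 0.28, adjusted p 0.226 in edgeR). Its PS values spread over more than the CS range, with replicate 3 at the CS level.

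Marco, for which alveolar macrophages are known, was low in these lungs, at 8.24, 4.16 and 2.88 CPM in CS and 6.21, 4.35 and 2.87 CPM in PS lungs. The diets overlapped, with the highest lung in CS, and a log2 fold change of -0.19 (SE 0.43, adjusted p 0.802 in edgeR) turned to 0.32 without CS replicate 1. Timd4 was at 1.87, 0.925 and 0.543 CPM in CS and 1.598, 1.62 and 1.10 CPM in PS lungs, with 0.36 (SE 0.49, adjusted p 0.646 in edgeR). Over the 6 lungs, the genes most like Marco by Pearson's r of log2 CPM, among 14021 ranked, were 4833407H14Rik (0.998), Cd300e (0.995), Mcl1 (0.993), Spn (0.984) and Atf3 (0.979), again as a description of 6 libraries. Cd300e and Spn are on the monocyte list used below. Timd4 stood at place 371 (0.791), C1qb at 1726 (0.540), Adgre1 at 2589 (0.424), C1qa at 3083 (0.365), Csf1r at 3610 (0.311) and Cd68 at 3791 (0.293).

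Clec4f, Vsig4 and Cd5l did not pass the filter in the lung. Clec4f had 11, 0 and 0 reads in CS lungs and 2, 0 and 1 in PS lungs, Vsig4 had 8, 2 and 3 and then 0, 1 and 0, and Cd5l had 7, 6 and 1 and then 2, 7 and 4. All Clec4f reads of the CS group were in replicate 1. This lung also held the most hepatocyte RNA, with a summed level of 198.98 CPM for the hepatocyte genes against 9.34 to 74.9 CPM in the other 5 lungs. Of the hepatocyte genes 6 were tested in the lung, and 6 had lower means on PS with 0 called. The part of liver RNA in these reads was not tested. A count of 0 in a lung allows up to 0.152 to 0.178 CPM (3 reads at the scaled library size), counting error only.

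**Figure D4:**
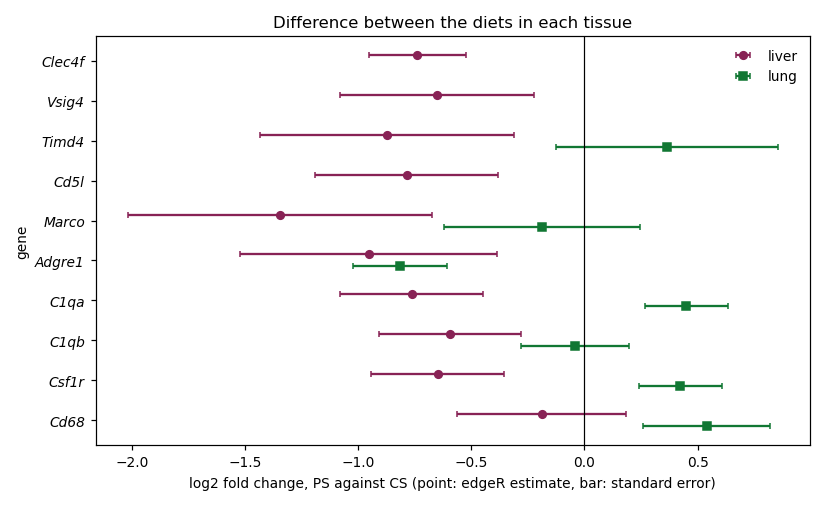
Log2 fold change of PS against CS (horizontal axis, edgeR estimate with its standard error as a bar) for each gene in the liver (circles) and, for the 7 genes tested there, the lung (squares). All 10 liver estimates lie below 0, from -1.35 to -0.19, and the lung estimates run from -0.81 to 0.54.

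The wider macrophage lists of the lung had mixed directions and few calls, at shares near the 4.43% of all genes called lower and 4.8% called higher, and 0 genes were called without CS replicate 3. Of 15 Kupffer cell genes, 14 were tested, 11 were higher and 1, Slc16a9, a monocarboxylate transporter, was called lower (-1.05, SE 0.26, adjusted p 0.0432 in edgeR). Slc16a9 was far higher in lung than in liver, at 15.7 ± 2.42 RPKM (SD over 3 mice) in CS lungs and 0.492 ± 0.148 RPKM (SD over 4 mice) in CS livers. On PS, 6 of the 15 were called higher in the lung than in the liver, against 38% of all genes, and 6 lower, against 30.7%. Of 19 alveolar macrophage genes, 14 were higher and 5 lower, and Plet1, a surface protein of alveolar macrophages that some epithelia also make, fell from 31.9 ± 3.91 CPM (SD over 3 mice) to 19.7 ± 1.93 CPM (SD over 3 mice), a log2 fold change of -0.70 (SE 0.16, adjusted p 0.0370 in edgeR). Siglecf, their lectin receptor, was at 5.10 ± 0.314 CPM in CS and 8.17 ± 2.88 CPM in PS lungs (SD over 3 mice each) and did not pass. Of the 25 genes of macrophages in general, 15 were higher and 10 lower, with 0 called.

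Growth factors, receptors and transcription factors of macrophages were higher in 18 of 21 cases. The single call, 1 of 21 against 4.8% of all genes called higher and lost without CS replicate 3, was Csf2ra, the alpha chain of the receptor for granulocyte-macrophage colony-stimulating factor, on which alveolar macrophages depend, which rose from 23.5 ± 2.14 CPM (SD over 3 mice) to 74.3 ± 33.6 CPM (SD over 3 mice). Its log2 fold change was 1.66 (SE 0.32, adjusted p 0.0271 in edgeR). Complement genes were higher in 9 of 10 cases and monocyte genes lower in 12 of 14, with 0 calls in either list. F13a1, a coagulation factor gene of monocytes, came nearest (-0.87, SE 0.25, adjusted p 0.0563 in edgeR).

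A few genes of other lung cells passed, 1 of 9 tested neutrophil genes and 3 of 11 endothelial genes, against the 4.8% of all genes called higher and 4.43% called lower, of which 0 remained called without CS replicate 3. Csf3r, the neutrophil growth factor receptor, rose by 1.06 on the log2 scale (SE 0.18, adjusted p 0.0204 in edgeR), with 6 of the 9 higher and summed levels of 124.6 to 385.8 CPM in CS and 240.0 to 516.6 CPM in PS lungs. Of the endothelial genes 2 were called higher and 1 lower, with Ramp2, a receptor-modifying protein of vessels, at 0.79 (SE 0.16, adjusted p 0.0307 in edgeR). The other 2 calls, named after their values were seen, were Stab1, a scavenger receptor that macrophages also carry, higher by 0.96 on the log2 scale, and Kdr, a receptor for vascular growth factor, with -0.95. Summed endothelial levels were 4379.4 to 5118.5 CPM in CS and 4739.3 to 5854.9 CPM in PS lungs. The part of these cells in the lung values was not tested.

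Of the 10 genes, Clec4f, Cd5l and Vsig4 differed most between lung and liver. On the control diet, 7 of the 10 genes were called lower in the lung, against 30% of the 17696 genes tested, and on the phytosterol diet 5 were called lower, against 30.7%, and 1 higher, against 38%. Both comparisons come from 1 edgeR fit over all 15 libraries. The median log2 fold change over all genes was 0.18 for lung against liver on either diet, and 0.30 and 0.34 under DESeq2's size factors, where the same numbers of the 10 genes were called. The plot of levels per gene length shows both tissues.

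**Figure D5:**
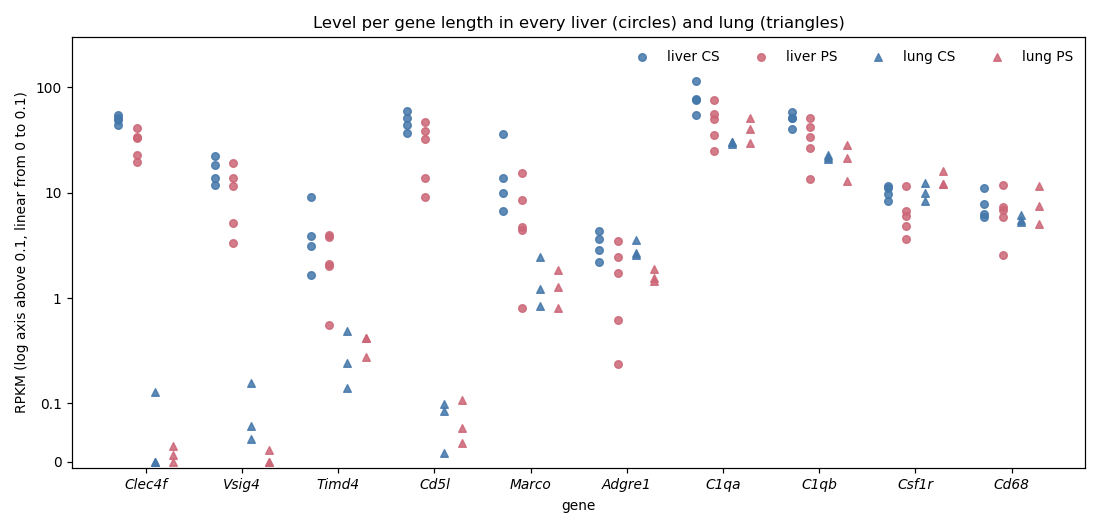
RPKM of each gene in every liver (circles) and lung (triangles) of the CS (blue) and PS (red) groups, on an axis that is logarithmic above 0.1 and linear from 0 to 0.1. Clec4f, Vsig4 and Cd5l are separated by at least an order of magnitude between the tissues, while the ranges of Adgre1, Csf1r and Cd68 overlap between them.

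Clec4f had 5504 reads over the 4 CS livers and 11 over the 3 CS lungs, a ratio of 1129 in favour of the liver after scaling (95% exact interval 630 to 2262, counting error only). On the PS diet it had 4077 and 3 reads, a ratio of 2374 (812 to 11518). Cd5l had 4405 and 14 reads on CS, a ratio of 710 (423 to 1299), and 3158 and 13 reads on PS, a ratio of 424 (248 to 798). Vsig4 had 1108 and 13 reads on CS, a ratio of 192 (112 to 362), and 868 reads against 1 on PS, a ratio of 1516 (271 to 59964). These ratios turned on single lungs. Without lung CS replicate 1, Clec4f had 0 reads in the CS lungs and was at least 2719-fold higher in the liver (3 reads over the group), without lung CS replicate 2 its ratio was 749 (418 to 1502), and without lung CS replicate 1 the CS ratio of Vsig4 was 328 (140 to 1013). On PS, Clec4f had a ratio of 4907 (880 to 193860) without lung replicate 1 and 1575 (539 to 7641) without lung replicate 2. Vsig4 had 0 reads without PS lung replicate 2 and was at least 335-fold higher in the liver, and its ratio was 1045 (187 to 41310) without PS lung replicate 1 and 982 (176 to 38839) without PS lung replicate 3. The edgeR adjusted p of these 3 genes was at most 8.80e-08 on either diet.

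Timd4 and Marco were lower in the lung by less. The RPKM of Timd4 was 4.46 ± 3.27 (SD over 4 mice) in CS and 2.49 ± 1.41 (SD over 5 mice) in PS livers, and 0.291 ± 0.179 and 0.369 ± 0.0827 in CS and PS lungs (SD over 3 mice each). No lung reached the lowest liver. The log2 fold change was -3.92 on CS (adjusted p 0.000114 in edgeR) and -2.74 on PS (adjusted p 0.00137 in edgeR), and on CS -3.30 without liver CS replicate 2 and -4.50 without lung CS replicate 1. Marco had 16.7 ± 13.4 RPKM (SD over 4 mice) and 6.75 ± 5.47 RPKM (SD over 5 mice) in CS and PS livers, and 1.503 ± 0.827 and 1.30 ± 0.518 in CS and PS lungs (SD over 3 mice each). Its log2 fold change was -3.47 on CS (adjusted p 0.000885 in edgeR) and -2.37 on PS (adjusted p 0.00859 in edgeR). The CS value was -2.76 without liver CS replicate 2 and -3.99 without lung CS replicate 1, the lowest and highest sizes over libraries left out, and every one passed. With the mouse as a block, over the 6 mice with both tissues, the PS value of Marco was -1.54 and did not pass (adjusted p 0.140 in edgeR), and the livers included PS replicate 3, with 0.799 RPKM, below all 6 lungs.

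The C1q genes differed between the tissues on the control diet. C1qa was at 81.2 ± 25.4 RPKM (SD over 4 mice) in CS livers and 30.0 ± 0.659 RPKM (SD over 3 mice) in CS lungs, a log2 fold change of -1.44, or -1.61 relative to the median of all genes (SE 0.33, adjusted p 0.00106 in edgeR). C1qb was at 50.2 ± 7.16 RPKM (SD over 4 mice) and 21.8 ± 0.886 RPKM (SD over 3 mice), with -1.20, or -1.38 relative to that median (SE 0.35, adjusted p 0.00577 in edgeR). No CS lung reached a CS liver for either gene. On the phytosterol diet the values were -0.27 for C1qa (SE 0.30, adjusted p 0.442 in edgeR) and -0.69 for C1qb (SE 0.33, adjusted p 0.0740 in edgeR), and the tissues overlapped. C1qb passed on that diet without liver PS replicate 3 (-0.89, adjusted p 0.00710 in edgeR) and without lung PS replicate 1 (-0.96, adjusted p 0.0362 in edgeR).

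Csf1r was at 10.2 ± 1.48 RPKM (SD over 4 mice) in CS livers and at 10.2 ± 1.99 RPKM (SD over 3 mice) in CS lungs, with a log2 fold change of 0.01 (SE 0.29, adjusted p 0.982 in edgeR). In the PS group it was at 6.57 ± 3.05 RPKM (SD over 5 mice) in livers and 13.4 ± 2.25 RPKM (SD over 3 mice) in lungs, a rise of 1.03 from liver to lung on the log2 scale, or 0.86 relative to the median of all genes (SE 0.28, adjusted p 0.00338 in edgeR). All 3 PS lungs, at 12.1 to 16.0 RPKM, were above all 5 PS livers, at 3.61 to 11.6 RPKM. Adgre1 and Cd68 did not pass on either diet. Adgre1 had -0.16 on CS (SE 0.54, adjusted p 0.812 in edgeR) and -0.06 on PS (SE 0.52, adjusted p 0.926 in edgeR), a sign that turned with DESeq2's size factors. Cd68 had -0.45 (SE 0.39, adjusted p 0.319 in edgeR) and 0.23 (SE 0.37, adjusted p 0.601 in edgeR).

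The order of the genes also differed between the tissues. In CS livers C1qa, C1qb, Clec4f and Cd5l led, at 48.1 to 81.2 RPKM on average, and neighbours in this order overlapped. A gap separated Cd5l from Marco and Vsig4, at 16.7 and 16.6 RPKM, and another separated Vsig4 from Csf1r, Cd68, Timd4 and Adgre1, at 3.25 to 10.2 RPKM, whose neighbours overlapped. In CS lungs the order was C1qa, C1qb, Csf1r, Cd68, Adgre1 and Marco, at 30.0, 21.8, 10.2, 5.65, 2.92 and 1.503 RPKM, with no overlap between neighbours, and the other 4 genes were at 0.0426 to 0.291 RPKM. In PS livers all neighbours overlapped, with C1qa, C1qb, Clec4f and Cd5l again the first 4. PS lungs kept the first 6 places of the CS lungs, with C1qb and Csf1r overlapping (20.9 and 13.4 RPKM), as did Adgre1 and Marco (1.63 and 1.30 RPKM).

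Across the 4 groups, Clec4f levels fell into the order CS liver, PS liver, then both lungs, with only the lungs overlapping. Vsig4, Timd4 and Cd5l had the livers above the lungs, with the liver diets overlapping. For Marco, Adgre1, C1qa, C1qb, Csf1r and Cd68 in RPKM every group overlapped the next in the order, which ran from CS liver down for Marco, Adgre1, C1qa and C1qb and from PS lung down for Csf1r and Cd68.

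The difference between the diet effects of the tissues was tested in the same fit. Of the 10 genes 0 passed, as did 0.0226% of all genes, which is 4 genes. At an unadjusted p of at most 0.05 edgeR gave 2 of the 10 as higher, C1qa and Csf1r, against 5.54% of all genes, and DESeq2's Wald test called 0 at an adjusted p under 0.05. Taken as lung minus liver, the diet effect of C1qa differed by 1.17 on the log2 scale (SE 0.44, adjusted p 0.380 in edgeR), and that of Csf1r by 1.02 (SE 0.41, adjusted p 0.403 in edgeR). For Adgre1, the gene called in the lung, the difference was 0.10 (SE 0.75, adjusted p 1.00 in edgeR). These values share their libraries with the comparisons within and between the tissues above.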

How the data were processed

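RNA-seq of 9 livers and 6 lungs was analysed. The authors cleaned 150 bp paired-end reads, aligned them with HISAT2 2.0.5 to mm10 and counted them per gene with featureCounts 1.5.0-p3, and they deposited these counts unnormalized. They also deposited FPKM values, these counts divided by gene length and library size, in a table per tissue. The authors' own DESeq2 version was 1.20.0.

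From the counts, the diets were compared per tissue, and lung with liver over the 15 libraries in 1 fit, with edgeR 4.0.16 (R 4.3.3), TMM scaling, the default filter on low counts and the quasi-likelihood test with its robust option. Benjamini-Hochberg adjustment covered all genes tested. The FPKM values entered limma 3.58.1 as log2(FPKM + 1) and log2(FPKM + 0.1), and DESeq2 1.42.0 was a further alternative. Each fold change therefore depends on TMM, and that of low genes on edgeR's prior count.

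The genes, the lists and the tests were chosen with earlier results of these data known, so no list is independent support. The named genes were the 10, the 3 of each macrophage, monocyte and complement list with the smallest p in a tissue and 1 for other cell types, of which the text gives a part, and the marker Siglecf. A named gene of these lists is not reported here. Positions come from GENCODE release M21 for GRCm38, where 54495 of 54532 genes were found, and promoters from RefSeq. Near-identical copies were sought at 95% identity over 200 bases. Lists of B cell, dendritic cell, red cell, alveolar epithelium, and fat and muscle genes were also counted. In the liver 0, 3, 5, 4 and 1 of their genes were tested, with 0, 3, 1, 2 and 1 lower (0, 1, 3, 2 and 0 without CS replicate 2), and in the lung 7, 9, 7, 10 and 10, with 5, 4, 5, 6 and 7 lower. Only a red cell gene was called, in the lung (1 lower). Of 10 T and NK cell genes tested in the lung, 3 were lower. Of 10 neutrophil genes, 3 were tested in the liver and 3 were higher.

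Libraries come from separate mice by their labels, and no 2 of a group were as close as counting noise would leave a repeated deposit (chi-square per degree of freedom at least 22.1). The same mouse gave a liver and a lung in 6 cases, a pairing taken from the mouse names. Deviations from the group means correlated at -0.05 to 0.11 between the tissues of a mouse.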

Additional observations from a re-analysis of the deposited data

How the results depend on the processing

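Of the values of single genes under the alternatives, 834 kept their direction and their side of the threshold, 9 lost a call, 3 gained one and 26 changed sign. In the liver the number of the 10 genes called stayed at 0 under every alternative with an adjusted p, including each liver left out (0 to 0), and was 3 at an unadjusted p. In the lung the number was 1, and it became 0 with limma on log2(FPKM + 1), 0 with limma on log2(FPKM + 0.1), 0 with the GC content trend removed (an alternative chosen after seeing the data, as was the gene length trend), 3 at an unadjusted p (which 30.1% of all genes passed), and 0 to 1 over the lungs left out, where without PS replicate 3 the 1 was C1qa in place of Adgre1. Over all genes, calls in the lung went from 802 higher and 740 lower to 0 and 0 without CS replicate 3, and to 1752 and 1197 without PS replicate 1. They were 1611 and 1479 with DESeq2's Wald test, 1220 and 1086 without a filter and 495 and 590 with limma on log2(FPKM + 1). In the liver they were 1 and 0, against 110 and 53 with the Wald test, 20 and 6 without a filter, 5 and 1 with that limma fit, and 43 and 22 without CS replicate 2. For the difference between diet effects they were 1 and 3, against 94 and 139 with the Wald test. Between the tissues 7 genes were called on CS (7 to 7 over libraries left out) and 6 on PS (6 to 7), against 4 and 3 with at least 10 counts in every library, where 6 of the genes could be tested. The difference between diet effects stayed at 0.

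Signs changed for values that had not passed. Leaving out libraries gave -0.47 to 0.051 for Cd68 in the liver, and -0.50 to 0.32 for Marco and -0.30 to 0.20 for C1qb in the lung. For lung against liver on PS, Adgre1 was 0.10 with DESeq2's size factors, 0.10 with its Wald test, 0.0085 without a filter, 1.03 with the mouse as a replicate block, and -0.35 to 0.36 over libraries left out. C1qa was 0.025 with at least 10 counts and 0.096 with the block, and Cd68 was -0.13 to 0.50 over libraries left out. On CS, Csf1r was -0.056 with the block and -0.14 to 0.14 over libraries left out, and Adgre1 was -0.31 to 0.0074. In the difference between diet effects Adgre1 was -0.19 to 0.52 and Clec4f -1.68 to 3.24. The cause was not tested.

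The labels do not say what a replicate number shares, and same-numbered libraries deviated with correlations of -0.36 to -0.03 in the liver and -0.01 to 0.10 in the lung. With the replicate number as a block, 0 of the genes were called in the liver (9 lower at an unadjusted p of at most 0.05, against 3 without the block) and 1 in the lung, and all genes gave 817 higher and 806 lower in the lung. The paired fit by mouse called 7 and 5 of the genes on CS and PS.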
